A study of Mus musculus with 4 samples.

Results

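The genes of the mitochondrial ribosome that carry *Mrpl* or *Mrps* symbols were taken as a group and followed across early T lineage progenitors (ETP) from young and old mice. Members were the rows of the deposited table whose symbol is *Mrpl* or *Mrps* followed by a number and, at most, 1 letter. This gave 76 of the 23361 genes, 47 *Mrpl* genes named for the large subunit and 29 *Mrps* genes named for the small subunit. The rule uses symbols and no measured value, but the group was picked with earlier results of these data known.

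Mitochondria keep a small genome whose few proteins are core parts of the respiratory chain, and they translate its messages on ribosomes of their own. The RNA of these ribosomes is made inside the organelle, whereas all of their proteins are encoded in the nucleus, made in the cytosol and imported. Some of the proteins have counterparts in every ribosome, some only in bacteria, and others were added in the mitochondrial lineage.

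The study compared ETP of young adult mice, 4 to 6 weeks old, with ETP of old mice, 72 weeks old, to learn how age changes gene expression in these progenitors. All mice were female and C57BL6 by the labels, C57BL/6J or B6 in the study's methods, no group was treated, and ETP were sorted from thymus as Lin- CD44+ CD25- CD117+ cells. There were 2 RNA libraries per age. The methods name different suppliers for young and old mice, so age and supplier cannot be told apart. In the deposited table the old condition is called 20m and the libraries carry the numbers 0 and 1 within an age, here replicates 1 and 2, and these numbers cannot be tied to single samples from the labels. Whether each library stands for different animals is not stated, so every p-value rests on library-to-library spread alone, which may be technical. Depth was 16658865 fragments in young replicate 1, 6414917 in young replicate 2, 11816480 in old replicate 1 and 4839341 in old replicate 2, so replicate 2 was the shallower library at both ages. Levels are given as normalized CPM (fragment counts relative to the total of the library, after scaling). The 6 marker genes of ETP summed to 2946 and 3193 CPM in young replicates 1 and 2 and to 2864 and 2441 in old replicates 1 and 2. Both old sums were thus below both young ones, while 3 of the 6 markers were higher in old ETP. The 10 markers of conventional dendritic cells were all higher in old ETP, with sums of 521.7 and 1029 CPM in young replicates 1 and 2 and of 5038 and 18210 in the old replicates 1 and 2. Both old sums were also above both young ones for NK and innate lymphoid cells (235.3, 229.6, 296 and 255.8 CPM in the same order). The same held for later T cells (46.4, 55.8, 59.5 and 102.5), myeloid cells (273.9, 244.4, 305.5 and 287) and thymic epithelium (1.35, 0.933, 2.18 and 13.9). Sums for plasmacytoid dendritic, B and erythroid cells overlapped between the ages. The part of these cell types in the results below was not tested. In sorted bulk cells, fewer cells with a transcript and less of it per cell cannot be told apart.

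All 76 members were expressed. Each had an FPKM (fragments per length of transcript and depth of the library) of at least 1 in all 4 libraries, so all 76 were among the 10080 genes that passed the filter of that FPKM in at least 2 libraries. The median member had 522.7, 138, 317 and 110.5 fragments in young replicates 1 and 2 and old replicates 1 and 2, and the lowest count of any member was 23 fragments. A count of 0, which no member had, would have allowed at most 0.664 CPM in the shallowest library, a limit that covers counting error only.

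The promoters of the members were searched for short motifs, and stretches from those of 5 members are printed here. RefSeq windows of 300 bases around the start of transcription were at hand for 67 of the 76 members, as 73 windows, on GRCm38. The core of the ETS family site, CCGGAAG, which the mitochondrial gene regulator GABP also reads, was found on either strand in 24 of the 73 windows, or 32.9%, against 19.4% of the windows of tested genes and 8.9% of all windows. The site of NRF1, a regulator of nuclear genes for mitochondria, searched as GCGCNTGCG, was in 23.3% of member windows, 14.4% of those of tested genes and 6.3% of all. The YY1 site AANATGGCG was in 13.7%, 5.8% and 2.4% of the same windows. In the stretches below, which end at the base before the RefSeq start, capitals mark CCGGAAG, its reverse complement or an NRF1 site.
*Mrpl52*, chr14:54426789-54426908, plus strand: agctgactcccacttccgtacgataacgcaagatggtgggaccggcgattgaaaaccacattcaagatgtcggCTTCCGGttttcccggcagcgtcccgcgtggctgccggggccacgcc
*Mrps21*, chr3:95871515-95871634, minus strand: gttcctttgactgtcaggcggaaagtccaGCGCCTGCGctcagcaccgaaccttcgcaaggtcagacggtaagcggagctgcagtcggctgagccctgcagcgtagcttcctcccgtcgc
*Mrpl22*, chr11:58171584-58171663, plus strand: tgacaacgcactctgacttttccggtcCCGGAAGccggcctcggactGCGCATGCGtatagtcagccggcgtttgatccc
*Mrps18a*, chr17:46110924-46111003, plus strand: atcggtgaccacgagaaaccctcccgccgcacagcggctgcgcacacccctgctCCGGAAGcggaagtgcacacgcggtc
*Mrps11*, chr7:78783090-78783130, plus strand: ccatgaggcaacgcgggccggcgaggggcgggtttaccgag

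The first belongs to the member with the largest difference between the ages, the second to the small-subunit gene with the highest level, and the third holds both an ETS core and an NRF1 site. The fourth belongs to a gene with a small-subunit symbol whose protein sits in the large subunit. The fifth is the whole of the 41 bases between the RefSeq start of *Mrps11* and that of *Mrpl46*, which is read from the other strand, so a large-subunit and a small-subunit gene share this stretch. The general promoter motif GGGCGG of Sp1 factors went the other way, in 52.1% of member windows and 63.2% of those of tested genes. The E box CACGTG was in 9.6% against 10.6% and the TATA box TATAAA in 6.8% against 6.7%. The median GC content was 58.3% in member windows, 60.7% in those of tested genes and 52.7% in all. A match is a stretch of letters, not a binding site, and some windows belong to the same gene.

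The members lie on 17 chromosomes in the GENCODE annotation of GRCm38. Of the 76, 32 or 42.1% had a protein-coding neighbour on the opposite strand that starts within 1000 bases and runs the other way, against 1700 of 9249 tested protein-coding genes, or 18.4%. Several of these neighbours also encode mitochondrial proteins, such as *Ndufb5* and *Ndufs6* (parts of respiratory complex I) beside *Mrpl47* and *Mrpl36*, and *Sars2*, the mitochondrial seryl-tRNA synthetase, beside *Mrps12*. *Mrps12*, which encodes a protein of the decoding centre, was at 21.9 and 11.0 CPM in the young and 21.3 and 7.30 in the old replicates 1 and 2. *Sars2*, 172 bases away, was at 19.9, 11.0, 20.6 and 8.19 CPM in the same order. Both genes were thus low in the shallower library of each age. The *Mrps11* and *Mrpl46* pair did not keep a common ratio, with 13.4, 3.58, 12.03 and 9.52 CPM for *Mrps11* and 23.2, 15.4, 23.4 and 17.04 for *Mrpl46*. *Mrps11* rested on 23 fragments in young replicate 2. In GENCODE, unlike RefSeq, the pair overlap at their starts, which lie 412 bases apart, and their exons overlap on opposite strands. Exons of 32 members overlap those of another annotated gene, which is protein-coding for 23 of them. How counting treated strand is not stated, so the values of these genes are uncertain.

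Levels per length differed widely within each subunit, and the subunits overlapped. The mean FPKM over the 4 libraries ran from 3.58 for *Mrpl35* to 37.6 for *Mrpl18*, with a median of 10.5. For 54 of the 76 it lay between 5 and 20. The median of all tested genes was 5.97, and 69.4% of tested genes had a lower mean FPKM than the median member. Within a library the highest member was 12.6 to 20.01 times the lowest. FPKM are set side by side here between genes only, because the deposited FPKM kept a difference between libraries, with a median over tested genes of 7.97 and 4.84 in the young and 6.4 and 4.13 in the old replicates 1 and 2.

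At the top of the large subunit were *Mrpl18*, *Mrpl33*, *Mrpl30* and *Mrpl24*. *Mrpl18*, whose bacterial counterpart holds the 5S RNA, had an FPKM of 65.3 and 24.3 in the young and 43.1 and 17.5 in the old replicates 1 and 2. *Mrpl33*, of the bacterial type, had 51.5, 22.9, 35.8 and 20.9 in the same order. *Mrpl30* had 41.5, 25.2, 34.4 and 18.6. The fourth, *Mrpl24*, had 45.4, 22.3, 33.1 and 18.5, and its exons overlap *Rrnad1* on the other strand. These 4 ranked among the 10 highest members in every library, as did *Mrpl23*, *Mrpl36*, *Mrpl42* and *Mrps21*, the last of them from the small subunit. The lowest of the large subunit were *Mrpl35*, with an FPKM of 1.98 to 5.79, and *Mrpl41*, a protein of the mitochondrial lineage, with 2.14 to 6.64. Together with *Mrpl11* and *Mrpl17* they were among the 10 lowest members by FPKM in every library. That rank depends on the length behind each deposited FPKM, which is not given. *Mrpl41*, whose longest annotated transcript is 776 bases, was at 30.9 CPM in young replicate 1, where the median *Mrpl* gene was at 34.4. *Mrpl17*, at 7300 bases, was at 58.9 to 76.8 CPM.

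**Figure D1:**
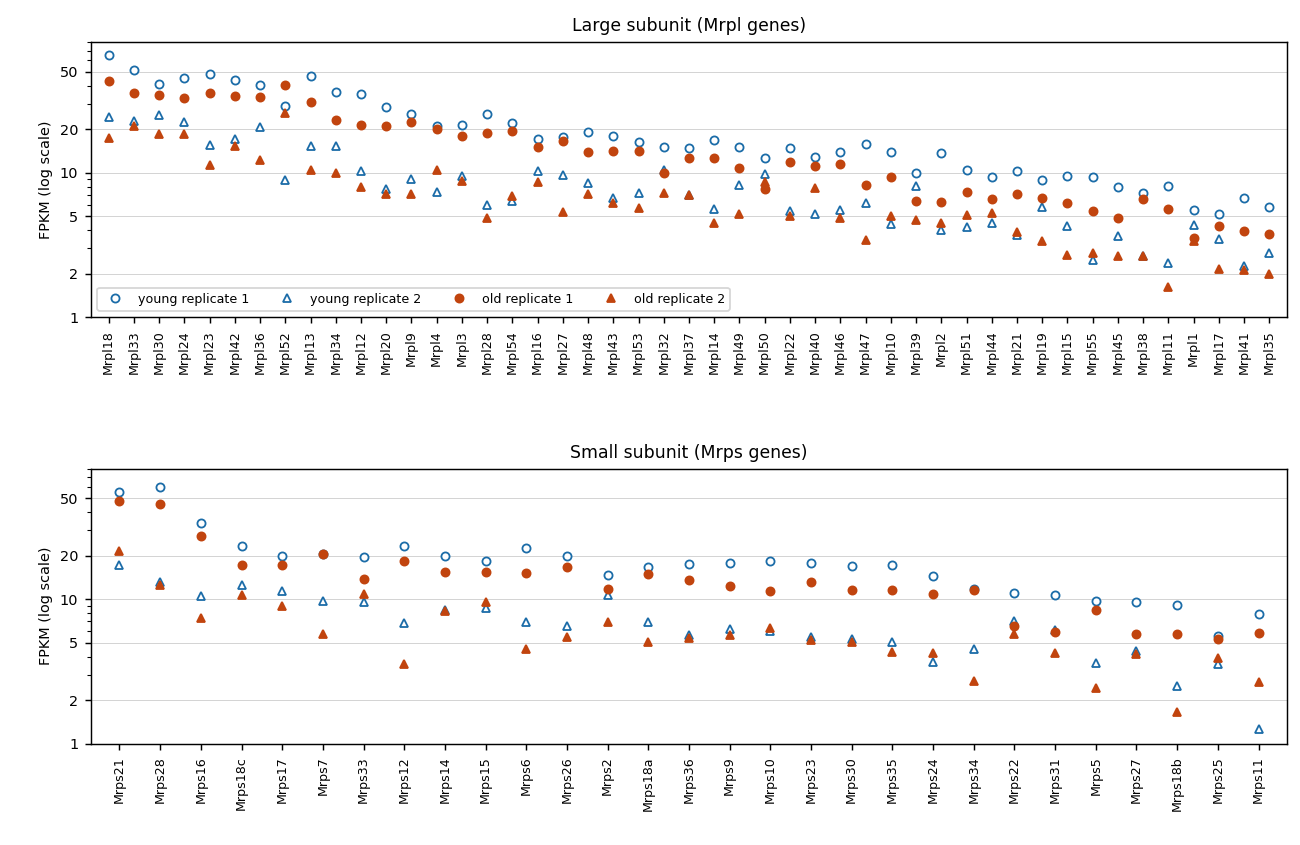
FPKM (log scale) of the 76 members in each library, in order of the mean, for the 47 *Mrpl* and the 29 *Mrps* genes. Open blue symbols are young and filled red symbols old libraries, and circles (replicate 1) lie above triangles (replicate 2) for nearly all genes, while 54 of the means lie between 5 and 20.

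In the small subunit, *Mrps21* led, with an FPKM of 54.7 and 17.2 in the young and 47.4 and 21.5 in the old replicates 1 and 2. *Mrps28*, the gene with the next highest level, had 59.7, 13.1, 45.4 and 12.6. *Mrps16* followed with 33.4, 10.6, 27.4 and 7.46. All 3 are of the bacterial type. *Mrps11*, with an FPKM of 1.26 to 7.87, and *Mrps25*, with 3.56 to 5.58, were the lowest by FPKM. *Mrps25* was not low in CPM, at 69.3 to 96.0, and its longest annotated transcript is 6073 bases. Its place by FPKM thus depends on the length used.

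3 genes carry the symbol *Mrps18*, descend from a single bacterial gene, and take different places in the ribosome. *Mrps18c*, the closest to the bacterial protein, had an FPKM of 23.1, 12.5, 17.2 and 10.6 in young replicates 1 and 2 and old replicates 1 and 2. *Mrps18a*, whose protein is part of the large subunit, had 16.7, 6.97, 14.8 and 5.06. *Mrps18b* had 9.07, 2.49, 5.75 and 1.66. Their order by FPKM was the same in all 4 libraries. On the CPM scale *Mrps18c* was nearly flat, at 12.8 and 12.6 in the young and 11.95 and 13.5 in old ETP, while *Mrps18a* was at 22.1, 15.6, 24.1 and 14.2 and *Mrps18b* at 15.7, 7.16, 12.1 and 5.98. *Mrps30*, another protein found in the large subunit despite its symbol, was at 48.3 and 24.7 CPM in the young and 40.5 and 29.4 in old ETP. *Mrps36*, now known as part of a dehydrogenase complex of the citric acid cycle rather than of the ribosome, was at 17.7, 9.80, 16.7 and 11.7 CPM.

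By class, 27 members have counterparts in all ribosomes, 19 in bacteria and 29 belong to the mitochondrial lineage, and *Mrps36* was left unclassed. The median of the mean FPKM was 11.0 for the first class, 15.9 for the second and 9.54 for the third, with ranges that overlapped throughout.

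As a whole, the members accounted for 0.278% and 0.199% of all fragments in young replicates 1 and 2, and for 0.261% and 0.192% in old replicates 1 and 2. The young mean was 0.239% ± 0.0556 and the old mean 0.227% ± 0.0489 (SD, n = 2 libraries each), so the ages overlapped and the libraries of an age stood further apart than the ages did (exact two-sided permutation test, p = 0.667). With 2 libraries per age that test cannot go below 0.33.

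The balance of the subunits lay in a narrow range. Summed FPKM of the *Mrpl* genes was 1.76 and 1.98 times that of the *Mrps* genes in the young and 1.72 and 1.92 times in the old replicates 1 and 2, or 1.87 ± 0.150 and 1.82 ± 0.144 (SD, n = 2 each, exact permutation p = 0.667). Per gene, the mean FPKM of the large subunit was 1.09, 1.22, 1.06 and 1.19 times that of the small subunit. Both ratios were higher in the shallower library of each age. On the scale of summed CPM the ratios were 1.86 and 2.00 in the young and 1.77 and 1.83 in old ETP, which do not overlap (exact permutation p = 0.33, the smallest possible). With *Mrps18a* and *Mrps30* counted in the large subunit and *Mrps36* left out, summed FPKM gave 2.01, 2.22, 1.96 and 2.16.

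**Figure D2:**
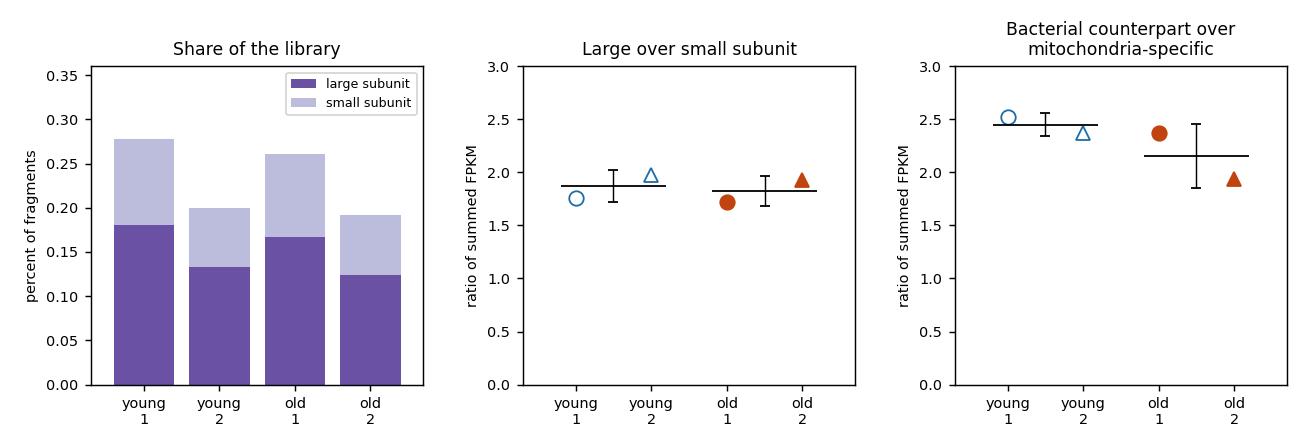
Left, percent of each library's fragments on the *Mrpl* and *Mrps* genes, as stacked bars. Middle and right, ratios of summed FPKM per library (circles replicate 1, triangles replicate 2, open young, filled old) with the mean and SD of each age, showing 1.72 to 1.98 for large over small subunit and 1.94 to 2.53 for members with a bacterial counterpart over those of the mitochondrial lineage.

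Members with a counterpart in bacteria or in all ribosomes summed to 2.53 and 2.37 times the FPKM of the mitochondrial class in young ETP and to 2.37 and 1.94 times in old ETP. The groups did not overlap, although young replicate 2 and old replicate 1 were level to 3 digits (exact permutation p = 0.33, the smallest possible). On the CPM scale the ratios were 2.04, 1.90, 2.05 and 1.61 and the ages overlapped (exact permutation p = 1.0). From median FPKM they were 1.37, 1.32, 1.34 and 1.27, and the ages overlapped again (exact permutation p = 0.667). The mitochondrial class holds *Mrpl52*, with an FPKM of 29.2 and 8.86 in the young and 40.3 and 26.0 in the old replicates 1 and 2. Its part in the ratios of the sums was not tested.

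The members differed more between the libraries of an age than between the ages. On the scale of normalized CPM, 55 of 76 members, or 72.4%, were lower in the shallower library at both ages, against 37.3% of tested genes, and 6 were higher there at both ages, against 39.2% of tested genes. Those 55 were 34 of the 47 *Mrpl* and 21 of the 29 *Mrps* genes. The median log2 difference, shallower over deeper library, was -0.58 in the young and -0.30 in old ETP for the members and -0.01 and 0.04 for all tested genes. The 77 genes of cytosolic ribosomal proteins had medians of -0.80 and -0.76. Their share of the fragments was 9.09% and 5.38% in the young and 8.88% and 4.91% in the old libraries.

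Transcript length moved with this difference. Tested genes with an annotated transcript length were split by it into bins of 3083, 3081 and 3081. The length was that of the longest annotated protein-coding transcript, which need not be the one expressed. In the bin of the shortest, up to 2342 bases, the median log2 difference was -0.32 in the young and -0.20 in old ETP, and in that of the longest, above 4023 bases, it was 0.21 and 0.27. Of the members, 56 were in the bin of the shortest, and their median was -0.68 in the young and -0.34 in old ETP. The 11 in the middle bin had -0.54 and -0.19, and the 9 in that of the longest had -0.40 and -0.27. These lengths need not be those behind the deposited FPKM either. In young replicate 1 *Mrps17*, at 5061 bases, had 40.0 CPM and an FPKM of 19.7. *Mrps25*, at 6073 bases, had 69.3 CPM and an FPKM of 5.58. The bins may thus misplace members, also in the bin of the longest. The part of length in the members' difference was not tested.

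**Figure D3:**
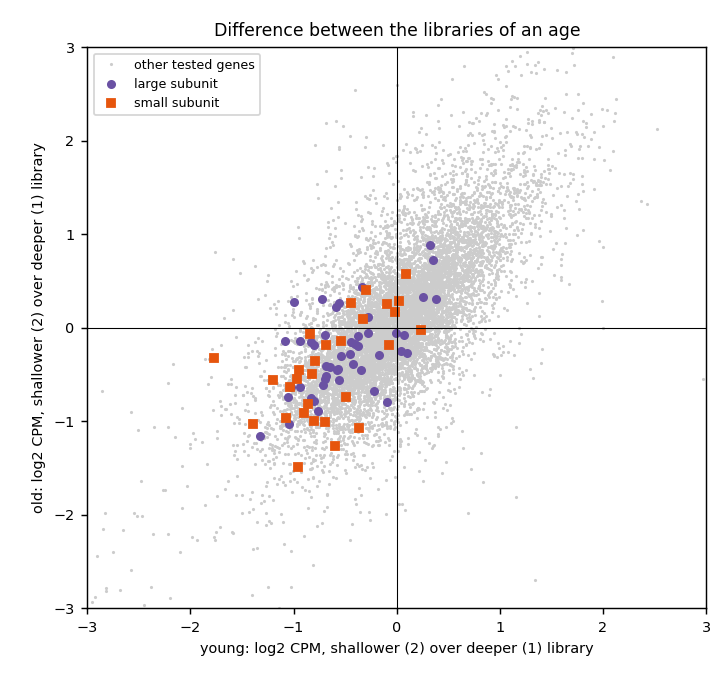
Each point is a gene, with the log2 difference in normalized CPM between the shallower and the deeper library of young ETP on the x axis and of old ETP on the y axis, over the 10080 tested genes, of which those beyond the ends of the axes are not drawn. Large-subunit genes (purple) and small-subunit genes (orange) lie mostly below and to the left of the origin, where 55 of the 76 are.

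The widest spread within an age was in *Mrpl28*, *Mrps12* and *Mrps28*. *Mrpl28*, of the bacterial type, was at 44.5 and 17.4 CPM in the young and 40.1 and 17.7 in the old replicates 1 and 2. *Mrps28* was at 61.0, 22.9, 57.0 and 27.7 CPM. In each of the 3 the shallower libraries of both ages were below the deeper libraries of both ages. The narrowest spread was in *Mrpl16*, at 32.0, 31.7, 34.7 and 33.4 CPM, with an SD of log2 CPM within an age of 0.023, against a median of 0.36 over the members. *Mrpl30* followed, at 39.6, 41.5, 40.5 and 38.5 CPM, with an SD of 0.050. The 6 that were higher in the shallower library at both ages were *Mrpl1*, *Mrpl32*, *Mrpl39*, *Mrpl50*, *Mrps22* and *Mrps25*, and their shared membership of that set was read off after their values were seen. *Mrpl1*, whose bacterial counterpart forms a mobile stalk of the large subunit, was at 27.0 and 34.5 CPM in the young and 18.4 and 30.8 in old ETP.

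Between the ages, 0 of the 76 members passed an adjusted p of 0.05 in edgeR's quasi-likelihood test, as did 0.0% of all tested genes, and 0 passed in DESeq2, which called 2.23% of tested genes. At an unadjusted p under 0.05, 1 member was higher in old ETP, against 4.46% of tested genes, and 0 were lower, against 0.942%. The edgeR estimate was lower in old ETP for 41 members, or 53.9%, against 53.0% of tested genes. It was under 0.5 in size on the log2 scale for 74 members, or 97.4%, against 79.8%, and exceeded its own standard error for 9, or 11.8%, against 32.5%. The median log2 fold change, old over young, was -0.04 over the members and -0.03 over the tested genes. The members' estimates were thus smaller in size than those of tested genes at large, a description with no test, and their split by direction was close to the background.

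The large subunit did not separate from the small subunit. The median log2 fold change was -0.06 over the 47 *Mrpl* genes, of which 27 had a lower estimate in old ETP, and 0.00 over the 29 *Mrps* genes, of which 14 did. By class the medians were -0.05 for the universal, -0.10 for the bacterial and 0.03 for the mitochondrial members. The median over all 76 moved with single libraries. It was 0.32 when young replicate 1 was left out and -0.25 when young replicate 2 was. It was -0.22 with old replicate 1 left out and 0.12 with old replicate 2 left out.

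**Figure D4:**
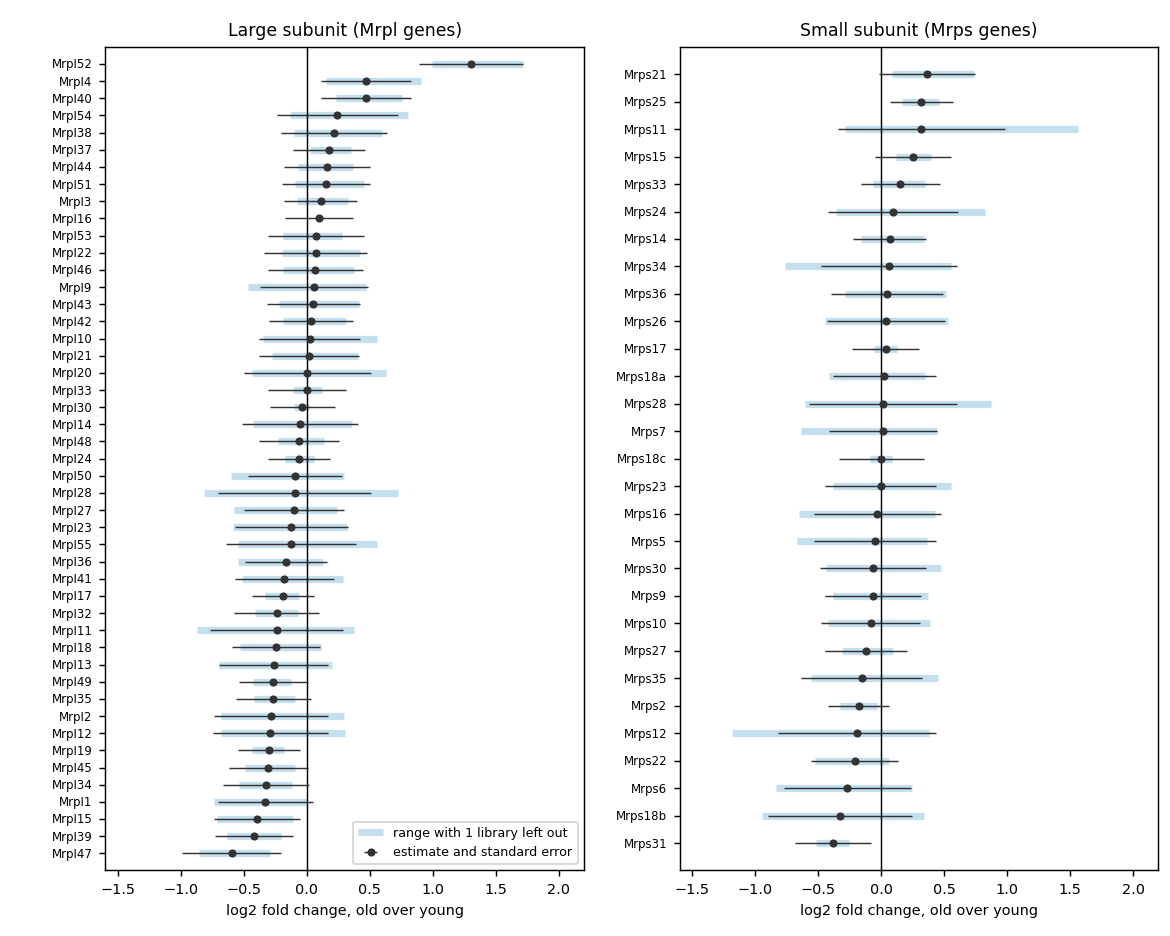
edgeR log2 fold change, old over young, of each member with its standard error (black) and the range of the estimate when a single library is left out (blue bars), for the *Mrpl* and the *Mrps* genes. *Mrpl52* at 1.30 is apart from the rest, which run from -0.60 to 0.47.

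Both old libraries were above both young libraries in 6 members, or 7.89%, against 16.4% of tested genes, and below them in 7, or 9.21%, against 15.7%. The 6 were *Mrpl4*, *Mrpl16*, *Mrpl40*, *Mrpl52*, *Mrps15* and *Mrps25*, and the 7 were *Mrpl17*, *Mrpl19*, *Mrpl39*, *Mrpl47*, *Mrpl49*, *Mrps2* and *Mrps31*. Some of these names were added after the values were seen.

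*Mrpl52*, a large-subunit protein of the mitochondrial lineage, was the exception among the members. It was at 10.6 and 6.22 CPM in the young and 18.7 and 23.2 in the old replicates 1 and 2, so both old libraries were above both young ones. The means were 8.41 ± 3.10 in the young and 20.98 ± 3.19 in old ETP (SD, n = 2 each). The old level was 2.49 times the young level, a log2 fold change of 1.30 with a standard error of 0.41. The unadjusted p was 0.0234 and the adjusted p 0.733 in edgeR, so the difference did not pass the test across all genes. The adjusted p was 0.290 in DESeq2, 0.194 in edgeR without the filter on low values and 0.0738 with the replicate number as a term, and over all alternatives run it reached 1.00. With 1 library left out the log2 fold change ran from 1.00 to 1.71. By FPKM its place among the 76 was 14 and 25 in the young and 4 and 1 in the old replicates 1 and 2, where 1 is the highest. Its transcript, at 463 bases, is the shortest of the members, which raises that place. In CPM it was the lowest member in young replicate 1, and in old replicate 2 it was below the median member, at 24.45. No annotated exon of another gene overlaps *Mrpl52*, which lies at chr14:54426909-54429756. The nearest gene downstream, *Mmp14*, a membrane-bound metalloproteinase, begins 1856 bases past its end. *Mmp14* was at 0.412, 0.467, 1.94 and 3.98 CPM, higher in both old libraries, and it was outside the filter on low values and so was not tested. The markers of conventional dendritic cells, and the other sums given above as higher in old ETP, also ran in that order between the ages. Their part in the level of *Mrpl52* was not tested.

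*Mrpl4* and *Mrpl40* had the next estimates. *Mrpl4*, a protein found in all ribosomes that lines the exit tunnel, was at 47.2 and 26.9 CPM in the young and 54.7 and 48.2 in old ETP, for a log2 fold change of 0.47 (standard error 0.36, edgeR adjusted p = 1.0). *Mrpl40* was at 22.2 and 14.9 in the young and 23.4 and 28.3 in old ETP, with the same log2 fold change of 0.47 (standard error 0.35). In both, old replicate 1 or 2 came close to young replicate 1, and the gap between the young libraries was wider than that between the nearest libraries of different age. *Mrpl54* was at 16.3, 8.24, 17.8 and 11.3 CPM, with ages that overlapped.

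In the small subunit, *Mrps21*, *Mrps25*, *Mrps11* and *Mrps15* had the most positive estimates. *Mrps25* was at 69.3 and 70.5 CPM in the young and 78.6 and 96.0 in old ETP, for a log2 fold change of 0.32 (standard error 0.25). Its exons overlap those of *Nr2c2* on the other strand. *Mrps21* was at 19.3 and 11.8 in the young and 21.5 and 18.8 in old ETP, so young replicate 1 lay between the old libraries. *Mrps11* rested on 23 fragments in young replicate 2, where it was at 3.58 CPM, and its log2 fold change of 0.32 had the widest standard error of all members, 0.66. *Mrps15* was at 27.0, 21.5, 27.9 and 29.9 CPM, so its ages were apart by a narrow margin. On the scale of log2(FPKM + 1) its estimate had the other sign, -0.05, but there the median over all tested genes was -0.27.

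**Figure D5:**
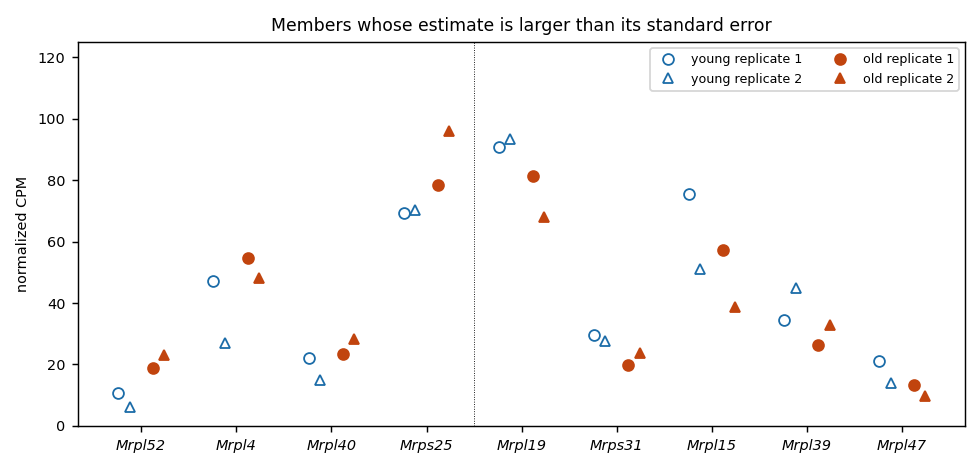
Normalized CPM of the 9 members whose log2 fold change between the ages was larger than its standard error, positive on the left and negative on the right of the dotted line. Open blue symbols are young and filled red symbols old libraries, circles are replicate 1 and triangles replicate 2, and *Mrpl52* lies at 6.22 and 10.6 in the young and 18.7 and 23.2 in old ETP.

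On the other side, *Mrpl47* had the most negative estimate. This protein of all ribosomes sits near the exit of the tunnel, and its gene was at 21.1 and 14.0 CPM in the young and 13.4 and 9.74 in the old replicates 1 and 2, for a log2 fold change of -0.60 (standard error 0.39, edgeR adjusted p = 1.0). Both old libraries were below both young ones, although old replicate 1 and young replicate 2 were nearly level. Its exons overlap *Actl6a* and *Ndufb5* on the other strand. *Ndufb5* was at 70.4, 43.1, 72.4 and 50.01 CPM, with ages that overlapped.

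*Mrpl39*, of the mitochondrial lineage, was at 34.4 and 44.8 CPM in the young and 26.4 and 32.8 in old ETP, for a log2 fold change of -0.42 (standard error 0.31). *Mrpl15* was at 75.6, 51.2, 57.4 and 38.7 CPM, and young replicate 2 lay below old replicate 1. *Mrps31*, of the mitochondrial lineage, was at 29.5 and 27.5 in the young and 19.9 and 23.9 in old ETP, for a log2 fold change of -0.38 (standard error 0.30). In *Mrpl39* and *Mrps31* both old libraries were below both young ones. *Mrps22* was at 22.9 and 24.3 CPM in the young and 16.3 and 24.6 in old ETP. *Mrps6* was at 25.7, 13.5, 21.3 and 11.1 CPM and *Mrps18b* as given above, and in both the ages overlapped.

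Across 13 fits, namely the reported one and the alternatives, 17 of the 76 members kept the sign of their estimate. Of these, 12 were negative (*Mrpl15*, *Mrpl17*, *Mrpl19*, *Mrpl32*, *Mrpl34*, *Mrpl35*, *Mrpl39*, *Mrpl45*, *Mrpl47*, *Mrpl49*, *Mrps2* and *Mrps31*) and 5 positive (*Mrpl4*, *Mrpl40*, *Mrpl52*, *Mrps21* and *Mrps25*). The other members changed sign in at least 1 fit, *Mrpl16*, *Mrps11* and *Mrps15* among them, so the order of the libraries given for those holds on the CPM scale used here. In the fits on the FPKM scale the median over all tested genes was itself below 0, at -0.27 and -0.33. A negative sign was therefore easier to keep than a positive one, and the split of 12 and 5 is not a result about the members. Since the fits share libraries, a kept sign is a description and not a test.

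Proteins of the same ribosome that go by other names were measured too, from a list of 7, and 0 of them passed the test in edgeR or DESeq2 or had an unadjusted p under 0.05. *Dap3*, a GTP-binding protein of the small subunit, was at 57.2 and 36.6 CPM in the young and 55.2 and 47.6 in old ETP. *Gadd45gip1*, at the tunnel exit of the large subunit, was at 28.2, 11.7, 28.2 and 13.5 CPM, and so was low in the shallower library of each age, like most members. *Ict1*, a peptide-releasing protein built into the large subunit, was at 12.5, 9.49, 13.2 and 12.4. The log2 fold changes of the 7 were 0.13 for *Dap3*, 0.03 for *Chchd1*, 0.10 for *Aurkaip1*, -0.25 for *Ptcd3*, 0.07 for *Gadd45gip1*, 0.22 for *Ict1* and 0.23 for *Mrp63*. 6 of the 7, or 85.7%, were lower in the shallower library at both ages, against 37.3% of tested genes.

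Factors that work with the ribosome showed no call either. Of 15 mitochondrial translation factors, 0 passed in edgeR or DESeq2, 12 or 80% had a lower estimate in old ETP, against 53.0% of tested genes, and the median log2 fold change was -0.10. Both old libraries were below both young ones in 3, or 20%, against 15.7%, and above them in 0, against 16.4%. *Slirp*, *Oxa1l* and *Tufm* had the highest mean FPKM of that list. *Tufm*, the elongation factor that brings tRNA to the ribosome, was at 70.2 and 25.4 CPM in the young and 52.8 and 29.9 in old ETP, again low in the shallower libraries. *Oxa1l*, which inserts new chains into the inner membrane, was at 88.6, 92.9, 87.4 and 98.7 CPM. *Slirp*, which stabilizes mitochondrial messages, was at 13.0, 10.6, 12.9 and 12.2. Of the 15 factors 5, or 33.3%, were lower in the shallower library at both ages, close to the 37.3% of tested genes.

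Of the 25 genes for assembly of the ribosome and modification of its RNA, 24 were tested, 0 passed in either tool, and 17 or 70.8% had a lower estimate in old ETP, against 53.0% of tested genes, with -0.10 as the median log2 fold change. In 5, or 20.8%, against 15.7%, both old libraries were below both young ones. In 1, or 4.17%, against 16.4%, they were above them. *Grsf1*, an RNA-binding protein of mitochondrial RNA granules, was at 128 and 159.6 CPM in the young and 110.2 and 110.9 in old ETP, for a log2 fold change of -0.38 (standard error 0.25). *Afg3l2*, a subunit of the protease that matures Mrpl32, was at 90.7 and 75.4 in the young and 78.0 and 74.1 in old ETP. *Malsu1*, a late assembly factor of the large subunit, was at 13.3, 19.8, 14.5 and 14.8.

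Of 9 genes for transcription and upkeep of the mitochondrial genome, 0 passed in either tool. Their estimate was lower in old ETP for 8, or 88.9%, against 53.0% of tested genes, and the list's median was -0.18 on the log2 scale. *Ssbp1*, which binds single-stranded mitochondrial DNA, was at 63.0 and 110.1 CPM in the young and 63.1 and 86.3 in old ETP. *Tfam*, which packs and transcribes that genome, was at 106.1 and 83.4 in the young and 90.7 and 76.1 in old ETP. *Tfb2m*, its partner in starting transcription, was at 44.6, 52.6, 41.7 and 46.9. In these 3, the highest of the list by FPKM, the ages overlapped. Both old libraries were below both young ones in 3 others, or 33.3% of the list against 15.7% of tested genes, which are named after their values were seen. *Mterfd3*, of the mitochondrial terminator family, was at 8.48 and 14.8 CPM in the young and 5.73 and 5.75 in the old libraries, with a log2 fold change of -1.01 (standard error 0.45, edgeR adjusted p = 0.993). *Polrmt*, the mitochondrial RNA polymerase, was at 27.3, 18.8, 18.7 and 17.9 CPM, and *Top1mt*, the mitochondrial topoisomerase, at 16.3, 12.4, 11.0 and 9.96. In 1 gene of this list, or 11.1%, against 16.4% of tested genes, both old libraries were above both young ones. These counts are descriptions of lists with no test. The 13 proteins encoded in mitochondrial DNA had no row under their symbols and were not analysed here.

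Of 8 regulators of nuclear genes for mitochondria, 6 were tested and 0 passed in either tool. *Gabpa*, the DNA-binding subunit of GABP, was at 179.8 and 220.9 CPM in the young and 138.5 and 203.2 in old ETP, with ages that overlapped. Its partner *Gabpb1* was at 166.9 and 204.1 in the young and 150.2 and 140.5 in old ETP, and *Yy1* at 125.8, 114.5, 111.4 and 87.6, in both cases with the young libraries above the old ones (log2 fold changes -0.35 and -0.27, standard errors 0.25 and 0.26). *Nrf1* was level at 42.5, 37.3, 41.8 and 40.3. *Pprc1*, a coactivator, was at 122.9 and 119.1 in the young and 167.8 and 124.6 in old ETP, so both old libraries were above both young ones. *Esrra* was at 5.24, 3.89, 5.17 and 4.65. Of the 6 tested, both old libraries were thus below both young ones in 2, or 33.3%, against 15.7% of tested genes. They were above them in 1, or 16.7%, against 16.4%. *Ppargc1a* and *Ppargc1b*, the best known coactivators of mitochondrial genes in other tissues, were below the filter and were not tested. *Ppargc1a* was at 4.00 and 4.67 CPM in the young and 1.86 and 2.43 in old ETP, with both old libraries below both young ones. *Ppargc1b* was at 6.89, 5.44, 6.62 and 3.76 CPM, with ages that overlapped.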

How the data were processed

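Values came from a table of 23361 genes in which the authors deposited, for each of 4 libraries of sorted ETP (2 per age), estimated counts of fragments and FPKM, in the layout of Cuffdiff. Libraries were made with a Nugen Ovation kit and read in pairs. Per the labels and the study's methods, reads were aligned with STAR 2.3.0 to GRCm38. Cufflinks 2.1.1, HTSeq 0.5.4p3 and DESeq 1.12.1 are also listed in the submitters' processing notes. The deposited FPKM divide the fragments by transcript length. This allows comparison between genes only as far as the length used for each, which is not given, matches the transcripts expressed. Kits that amplify whole transcripts, multi-mapped reads and strand handling can shift single genes, and the last 2 are not given in the sources used here.

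Estimated counts were rounded to whole numbers and scaled by TMM. The quasi-likelihood test of edgeR 4.0.16 in R 4.3.3, with a single term for age, was run on the 10080 genes that reached an FPKM of 1 in 2 or more libraries, and p-values were adjusted by Benjamini-Hochberg (threshold 0.05). CPM are on the TMM scale, and log2 differences between libraries add 0.5 CPM. Single values per library were compared by exact permutation. Alternatives were DESeq2 1.42.0, other scalings and filters, limma 3.58.1 on log2(FPKM + 1) and log2(FPKM + 0.1), a replicate block, and omission of each library in turn. The edgeR steps were also run on simulated data, with changes larger than any member's estimate and less spread than in these libraries. That run cannot speak to changes of the members' size. Depth was 4839341 to 16658865 fragments, and limits from counts cover counting error only, since PCR copies are not independent molecules.

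The members and all lists were chosen with earlier results of these data known. By rule the text names, per subunit, the 4 highest and 2 lowest members by mean FPKM and the 4 most positive and 4 most negative estimates, the 3 with the widest spread, the *Mrps18* genes, *Mrps30* and *Mrps36*, and, from each other list, the 3 highest genes or every gene of a list of 8 or fewer. *Mrpl11*, *Mrpl16*, *Mrpl17*, *Mrpl19*, *Mrpl22*, *Mrpl23*, *Mrpl32*, *Mrpl34*, *Mrpl36*, *Mrpl42*, *Mrpl45*, *Mrpl46*, *Mrpl49*, *Mrpl50*, *Mrps2*, *Mrps17*, *Mterfd3*, *Polrmt*, *Top1mt* and all neighbouring genes were named after their values were seen. Classes follow the standard names of ribosomal proteins. Positions and transcript lengths (the longest protein-coding transcript of a gene) come from GENCODE M21 and promoters from RefSeq, both on GRCm38.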

Additional observations from a re-analysis of the deposited data

How the results depend on the processing

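No member, and no gene of the lists of translation factors, ribosome assembly and mitochondrial transcription, passed an adjusted p of 0.05 in any of the 13 fits, and the smallest adjusted p of a member was 0.0738, for *Mrpl52* under the replicate block. Over all tested genes the fits called 0 in the reported one, 225 with DESeq2, 481 with the replicate block, 221 without old replicate 1 and, over 17112 genes, 508 without a filter. Deviations from the age means correlated at 0.73 between equally numbered libraries, but there are only 2 pairs and nothing ties the numbers to a shared animal or batch. On the FPKM scale the median of all tested genes was -0.27 with log2(FPKM + 1) and -0.33 with log2(FPKM + 0.1). There 70 and 70 members had a lower estimate in old ETP, and the medians were -0.34 and -0.36 for *Mrpl* and -0.29 and -0.31 for *Mrps* genes, so relative to all genes they moved little. With 1 library left out, 19 to 62 members had a lower estimate, and the medians ran from -0.22 to 0.29 for *Mrpl* and from -0.30 to 0.37 for *Mrps* genes. The old over young ratio of the members' share of fragments ran from 0.805 to 1.14, and that of the large over small ratio from 0.921 to 1.03, with 1.04 from median FPKM. Single members changed sign as follows, and the cause was not tested. *Mrps18c* was at -0.0037 with DESeq2, -0.0025 with relative log expression, -0.046 with upper-quartile scaling, -0.011 without a filter, -0.31 and -0.33 on the FPKM scales and -0.0069 under the replicate block. *Mrpl33* was at -0.043 with upper-quartile scaling, -0.010 without a filter, -0.32 and -0.33 on the FPKM scales and -0.0012 under the block. *Mrps28* was at -0.0060 with upper-quartile scaling and -0.22 and -0.23 on the FPKM scales. The FPKM scales also gave -0.037 and -0.034 for *Mrpl54*, -0.045 and -0.045 for *Mrps15*, -0.28 and -0.31 for *Mrps18a*, and -0.21 and -0.23 for *Mrps36*. With 1 library omitted, estimates ran from -0.74 to 0.0033 for *Mrpl1*, -0.53 to 0.12 for *Mrpl18*, -0.17 to 0.055 for *Mrpl24*, -0.82 to 0.72 for *Mrpl28*, -0.10 to 0.019 for *Mrpl30*, -0.11 to 0.12 for *Mrpl33*, -0.51 to 0.28 for *Mrpl41* and -0.13 to 0.80 for *Mrpl54*. In the small subunit it ran from -0.29 to 1.56 for *Mrps11*, -1.18 to 0.38 for *Mrps12*, -0.65 to 0.43 for *Mrps16*, -0.42 to 0.35 for *Mrps18a*, -0.95 to 0.34 for *Mrps18b*, -0.087 to 0.089 for *Mrps18c*, -0.53 to 0.061 for *Mrps22*, -0.61 to 0.87 for *Mrps28*, -0.44 to 0.48 for *Mrps30*, -0.28 to 0.52 for *Mrps36* and -0.83 to 0.25 for *Mrps6*. Where an age kept 1 library, its spread was taken from the other age. Depth limits the members with the fewest fragments most. *Mrps11* rested on 23 fragments in young replicate 2 and *Mrps18b* on 27 in old replicate 2.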
